A study of Ovis aries with 12 samples.

Results

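The genes described here encode the subunits, activators, inhibitor and assembly chaperones of the proteasome. They were chosen by name: every entry of the deposited gene table whose symbol is PSMA, PSMB, PSMC, PSMD, PSME, PSMF or PSMG followed by a number, leaving out PSMB8, PSMB9 and PSMB10, the catalytic subunits of the immunoproteasome. This gave 38 of 26247 genes. They are 7 PSMA and 6 PSMB genes of the core particle, 5 PSMC genes of the ATPase ring, 12 PSMD genes of the base, the lid and 1 chaperone, 4 PSME activators, the inhibitor PSMF1 and 3 PSMG chaperones. All 38 passed the filter on low values (FPKM, fragments counted per unit of gene length and of sequencing depth, of at least 1 in at least 3 libraries). PSMA2, PSMC6 and PSMD9 stood in the table without a symbol, were identified by their RefSeq gene number and are given as related genes. PSMB6, PSMB11, PSMD10 and PSMG4 were not analysed here.

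The proteasome degrades proteins that carry ubiquitin chains. Its core particle is a barrel of stacked rings, with outer rings of PSMA subunits that gate the entry and inner rings of PSMB subunits that hold the proteolytic sites. The regulatory particle caps the barrel: PSMC ATPases unfold the substrate, PSMD subunits of the base bind ubiquitin, and the PSMD lid removes ubiquitin chains. PSME and PSMF proteins bind the same end of the barrel in place of the regulatory particle, and PSMG chaperones guide the assembly of the outer ring.

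RNA came from sheep embryos that had been digested to single cells, and bulk libraries were sequenced. The 4 groups of 3 libraries were embryos of 2 breeds at 2 ages: Ujumqin sheep, the control breed of the study, and Hulunbuir Short-tail Sheep, each at day 16 and day 25. No treatment or genetic change was named for any group. Nothing in the labels ties the 3 libraries of a group to separate mothers or embryos, so p-values measure only the spread between these libraries, which may be technical. In such bulk samples fewer cells of a type and less RNA per cell cannot be told apart. Total counts per library ranged from 30464606 to 55455815, and the 38 genes took between 0.447% and 0.712% of them.

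Libraries of day 16 varied more than those of day 25. The biological coefficient of variation is the spread left after counting error. Fitted as 1 value common to all tested genes, it was 43.8% at day 16 and 18.1% at day 25. The median of single-gene values over the proteasome genes was 25.2% and 10.1%. These are measures of unlike kind, so that proteasome genes and all genes are not compared by them. Among the Hulunbuir libraries of day 16, replicate 1 had the highest FPKM for 29 of the 38 genes and replicate 2 the lowest for 34. Markers of other tissues moved with age and breed. The summed FPKM of 7 trophoblast markers lay between 1400 and 4440 at day 16 and between 269 and 458 at day 25, with 5 of 7 called lower with age in Ujumqin and 4 in Hulunbuir. The summed FPKM of 9 erythroid markers was 850 to 3780 in Ujumqin and 73.8 to 151 in Hulunbuir at day 16, where 7 of 9 were called lower in Hulunbuir, and 1860 to 2380 and 15500 to 18300 at day 25, where 8 were called higher in Hulunbuir. With age 1 of the 9 was called higher and 5 lower in Ujumqin, and all 9 higher in Hulunbuir. The summed FPKM of 8 embryo tissue markers was 1980 to 6630 in Ujumqin and 468 to 1560 in Hulunbuir at day 16, and 641 to 972 and 2160 to 2290 at day 25. Of these 8, 1 was called higher and 1 lower in Hulunbuir at day 16 (median log2 change 1.37), and none at day 25 (0.15). With age 4 were called higher and 3 lower in Ujumqin (median 1.23), and 1 and 2 in Hulunbuir (0.57). Between breeds at day 16 and with age in Ujumqin, sum and median went opposite ways. Of all tested genes, 30.7% were called higher and 32.9% lower with age in Ujumqin, and 18.9% and 21.6% in Hulunbuir. Between breeds, 8.46% were called higher and 8.39% lower in Hulunbuir at day 16, and 7.88% and 8.84% at day 25. The part of these markers in the results that follow was not tested.

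Log2 changes, standard errors (SE) and adjusted p-values are from edgeR's quasi-likelihood test on counts scaled by TMM (trimmed mean of M-values) with Benjamini-Hochberg adjustment over 14595 genes, and a gene is called at an adjusted p under 0.05. FPKM are as deposited and are scaled by total counts alone, so that FPKM and log2 changes can differ in size and, where a change is small, in direction. This matters for Hulunbuir at day 25: with total counts alone the median change of all genes was 0.352 on the log2 scale between breeds at day 25 (-0.01 with TMM), and 0.136 from day 16 to day 25 in Hulunbuir (-0.04 with TMM).

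From day 16 to day 25 proteasome genes changed in both directions in both breeds. The core subunits PSMA3, PSMA5, PSMA7, PSMB1, PSMB4, PSMB5 and PSMB7, the lid subunit PSMD8, the activator pair PSME1 and PSME2, the inhibitor PSMF1 and the chaperone PSMG3 rose in both breeds, whereas the nuclear activators PSME3 and PSME4 and the regulatory subunits PSMD1, PSMD3 and PSMD12 fell in both. In Ujumqin 24 of 38 were called higher, against 30.7% of all tested genes, and 6 lower, against 32.9% (63.6% in either direction). The 24 include PSMA8, which passed the filter on low values only through day 25. In Hulunbuir 12 were called higher, against 18.9%, and 5 lower, against 21.6% (40.5% in either direction). The FPKM of the 2 ages did not overlap for 23 higher and 8 lower genes in Ujumqin, against 30.9% and 36.9% of all tested genes, and for 26 and 5 in Hulunbuir, against 33.4% and 21.6%. The median change of the 38 genes was 0.47 in Ujumqin and 0.29 in Hulunbuir on the log2 scale, where the median of all tested genes was -0.07 and -0.04. The comparisons of the 2 breeds shared no library, although they shared the estimate of the spread. All 12 genes called higher in Hulunbuir were among the 24 of Ujumqin (100% of the Hulunbuir and 50% of the Ujumqin calls), and all 5 called lower were among the 6 of Ujumqin (100% and 83.3%); the remaining gene was PSMD2. With total counts alone in place of TMM the calls were 19 higher and 6 lower in Ujumqin and 22 higher and 0 lower in Hulunbuir. Of all 14595 tested genes, 4013 were then called higher and 5023 lower in Ujumqin, and 3454 and 2144 in Hulunbuir. In Hulunbuir 19 of the 38 were called higher without day 16 replicate 1, 8 without day 16 replicate 2 or 3 and 7 without any of the 3 libraries of day 25. Calls over all tested genes were 2503 higher in the first case, 2697 and 2549 in the next and 1986 to 2089 in the last. The number called lower was 3 without replicate 1 of either age and 1 without day 25 replicate 2. Over all tested genes it was 2927 (day 16) and 2254 (day 25) without replicate 1, and 2143 without day 25 replicate 2.

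**Figure D1:**
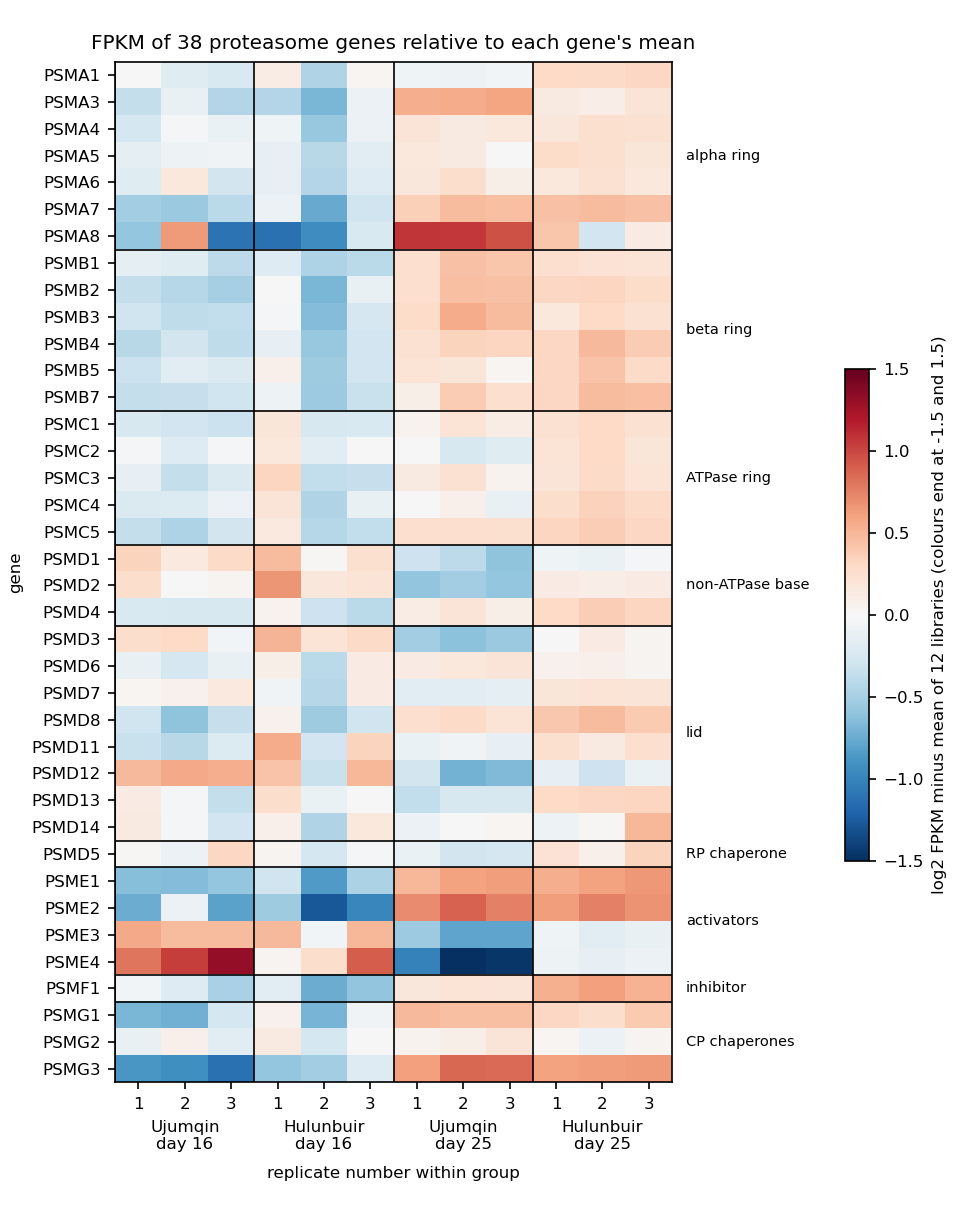
Level of the 38 genes in each of the 12 libraries, as log2 FPKM minus the gene's mean over the 12 libraries, with genes in rows by role and libraries in columns by group. Most rows of the core rings, PSME1, PSME2 and PSMG3 turn from blue at day 16 to red at day 25, and PSMD1, PSMD3, PSMD12, PSME3 and PSME4 are mostly red at day 16 and blue in Ujumqin at day 25.

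**Figure D2:**
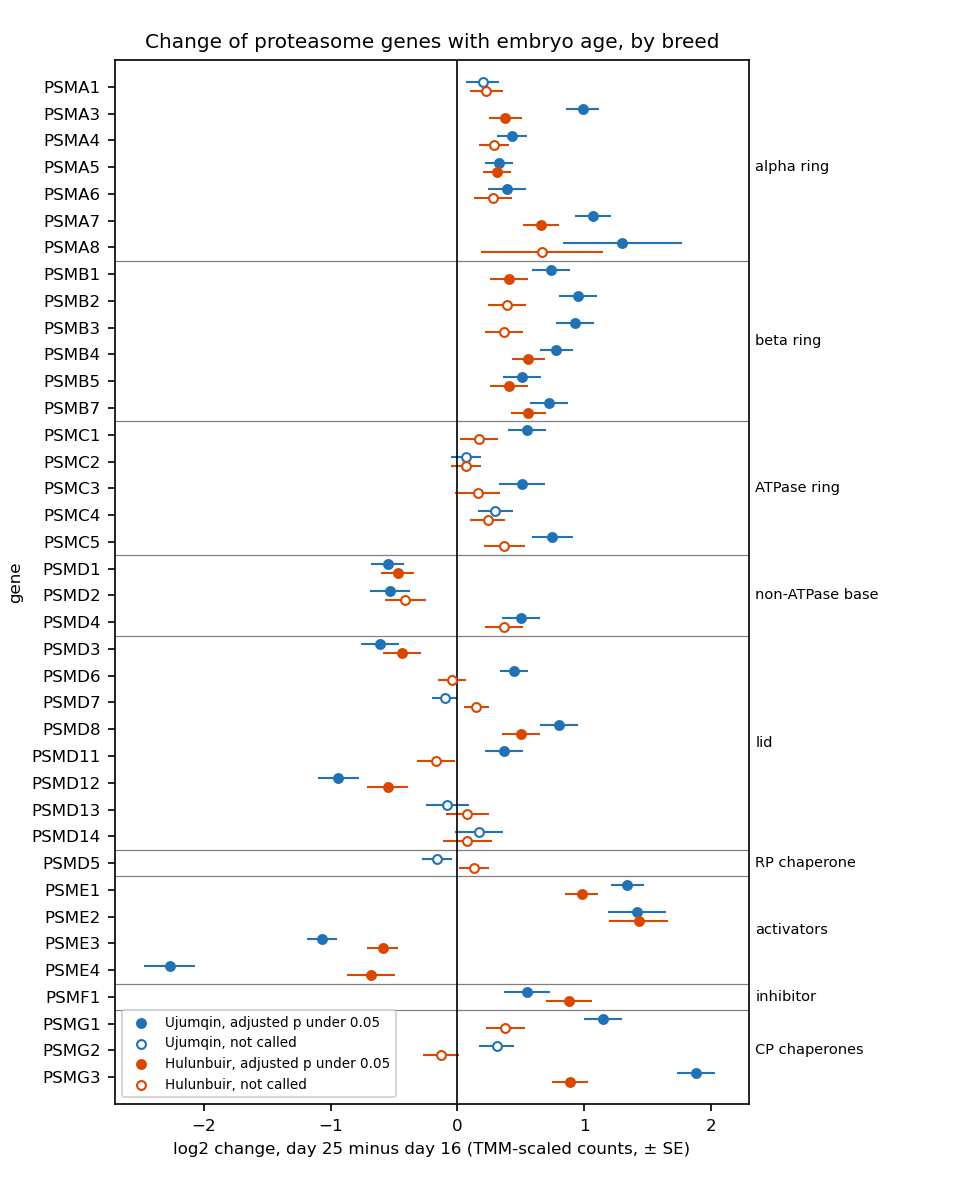
Log2 change from day 16 to day 25 (horizontal axis, TMM-scaled counts) of each gene in Ujumqin and Hulunbuir, with bars of 1 SE and filled points for an adjusted p under 0.05. The largest rise was that of PSMG3 in Ujumqin (1.88) and the largest fall that of PSME4 in Ujumqin (-2.27).

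Every called change in the core particle was a rise. In Ujumqin 12 of its 13 genes were called higher with age and none lower, against 30.7% and 32.9% of all tested genes. PSMA8, among the 12, passed the filter on low values only through the later age. The changes there ran from 0.20 to 1.30 (median 0.74), and PSMA1 was not called (0.20 ± 0.13). In Hulunbuir 7 of 13 were called higher and none lower, against 18.9% and 21.6%, with changes from 0.23 to 0.67 (median 0.39). Under the scaling by total counts, by upper quartile and by RLE, no called gene of the core changed direction.

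PSMA7, a subunit of the outer ring encoded on chromosome 13 (Oar_v3.1, bases 54363499 to 54366883), had 194, 189 and 210.0 FPKM in Ujumqin at day 16 and 357, 387 and 380.0 FPKM at day 25. In Hulunbuir its level was 262, 165 and 226 FPKM at day 16 and 376, 387 and 379 FPKM at day 25. The ages did not overlap in either breed. The change was 1.07 ± 0.14 (SE) in Ujumqin (edgeR, adjusted p = 6.2e-05) and 0.66 ± 0.14 in Hulunbuir (adjusted p = 0.00315). Both calls held under every alternative that was run. LSM14B, with up to 15188 counts in a library, lies on the opposite strand over 2157 bases of PSMA7, and whether strand was used in counting is not known here.

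PSMB4, a structural subunit of the inner ring (chromosome 1, bases 100246814 to 100248983), had 214, 235 and 219 FPKM in Ujumqin at day 16 and 332, 358 and 354 FPKM at day 25. In Hulunbuir it had 260.0, 192 and 233 FPKM at day 16 and 352, 397 and 371 FPKM at day 25. Again the ages did not overlap. The change was 0.78 ± 0.13 in Ujumqin (edgeR, adjusted p = 0.000402) and 0.56 ± 0.13 in Hulunbuir (adjusted p = 0.00676).

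PSMB5, which carries the chymotrypsin-like active site, had 28.2, 31.1 and 30.3 FPKM in Ujumqin at day 16 and 40.6, 39.9 and 35.8 FPKM at day 25. In Hulunbuir the values were 37.1, 24.2 and 28.9 FPKM and then 43.5, 47.3 and 43.0 FPKM. Its change was 0.51 ± 0.15 in Ujumqin (edgeR, adjusted p = 0.00992) and 0.41 ± 0.15 in Hulunbuir (adjusted p = 0.0415). The Hulunbuir call was lost without any 1 of 5 libraries (Hulunbuir day 16 replicates 2 and 3 and the 3 of day 25, adjusted p 0.0807 to 0.135), and the Ujumqin call without day 25 replicate 2 (adjusted p = 0.0515). PSMB7, which carries the trypsin-like site, changed by 0.72 ± 0.15 and 0.56 ± 0.14 in the 2 breeds (edgeR, adjusted p = 0.00126 and 0.00994).

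PSMB3 (chromosome 11) had 136, 129 and 129.8 FPKM in Ujumqin at day 16 and 203, 246 and 233 FPKM at day 25, and in Hulunbuir 165, 107 and 141 FPKM followed by 188, 206 and 196 FPKM. It was called higher with age in Ujumqin (0.93 ± 0.15, edgeR, adjusted p = 0.000285) and not called in Hulunbuir (0.37 ± 0.15, adjusted p = 0.0679). The difference between the breeds in this change was itself not called (-0.56 ± 0.21, edgeR, adjusted p = 0.0818). PSMB2 changed by 0.95 ± 0.15 in Ujumqin and 0.39 ± 0.15 in Hulunbuir (edgeR, adjusted p = 0.000223 and 0.0517).

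PSMA3, a subunit of the outer ring (chromosome 7, bases 67456790 to 67481522), had 113, 135 and 108 FPKM in Ujumqin at day 16 and 107, 90.7 and 137 FPKM in Hulunbuir. At day 25 it had 213, 215 and 220.1 FPKM in Ujumqin and 159, 156 and 166 FPKM in Hulunbuir. At day 25 the breeds did not overlap, and Hulunbuir was the lower. The change with age was 0.99 ± 0.13 in Ujumqin (edgeR, adjusted p = 8.2e-05) and 0.38 ± 0.13 in Hulunbuir (adjusted p = 0.0384). The latter call was lost when any 1 of 5 of the 6 Hulunbuir libraries was left out (all but day 16 replicate 3, adjusted p 0.077 to 0.115).

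PSMA8 is the alpha subunit known from the testis, where it takes the place of PSMA7. It was the lowest of the 38 genes, with 0.803, 1.86 and 0.558 FPKM in Ujumqin at day 16 and 2.53, 2.50 and 2.32 FPKM at day 25, and in Hulunbuir 0.555, 0.630 and 1.02 FPKM followed by 1.60, 0.988 and 1.31 FPKM. Its counts per library ran from 31 to 106. At day 16 only Ujumqin replicate 2 and Hulunbuir replicate 3 reached 1 FPKM. PSMA8 thus passed the filter on low values only through day 25, where it was higher, and its call is not taken as support for a rise. The Ujumqin change of 1.30 ± 0.47 (edgeR, adjusted p = 0.0317) was lost without any 1 of 5 Ujumqin libraries (all but day 16 replicate 2, adjusted p 0.0604 to 0.104). Relative to PSMA7 in the same library its FPKM was between 0.212% and 0.987%.

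PSMB1, a structural subunit of the inner ring, changed by 0.74 ± 0.15 in Ujumqin and 0.41 ± 0.15 in Hulunbuir (edgeR, adjusted p = 0.00129 and 0.0461; the latter 0.0989 to 0.128 without Hulunbuir day 16 replicate 3 or any 1 library of day 25). PSMA5 changed by 0.33 ± 0.11 and 0.31 ± 0.11 (edgeR, adjusted p = 0.0194 and 0.0394), and each call was lost without any 1 of 5 of the 6 libraries of its breed (all but day 16 replicate 2 in Ujumqin and replicate 1 in Hulunbuir, adjusted p 0.0509 to 0.109 and 0.0526 to 0.118). PSMA4 (0.43 ± 0.12) and PSMA6 (0.39 ± 0.15) were called in Ujumqin (edgeR, adjusted p = 0.00918 and 0.0393) and lost without day 16 replicate 1 (PSMA4, 0.0527) or any 1 of 5 Ujumqin libraries (PSMA6, all but day 16 replicate 2, 0.062 to 0.164), and in Hulunbuir they had 0.29 ± 0.12 and 0.28 ± 0.15 (adjusted p = 0.0714 and 0.161).

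Between genes of the core, FPKM followed the length of the gene model. The length implied by count and FPKM was 3664 to 6039 bases for PSMA4, PSMA6, PSMB1 and PSMB5, whose mean FPKM was 22.3 to 44.9, and 660 to 904 bases for the 8 others without PSMA8, whose mean FPKM was 130.0 to 293. Mean counts were alike, at 4989 to 8778 for the former and 3616 to 10094 for the latter. The order of FPKM among core subunits was thus not separable from the gene models.

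Of the 5 PSMC genes of the ATPase ring, 3 were called higher with age in Ujumqin (PSMC1, PSMC3 and PSMC5), against 30.7% of all tested genes. In Hulunbuir 0 were called higher, against 18.9%. None was called lower in either breed, against 32.9% and 21.6%. PSMC5 (chromosome 11, bases 47499794 to 47504262), the most abundant by FPKM, had 127, 118 and 134 FPKM in Ujumqin at day 16 and 194, 194 and 193 FPKM at day 25. The Hulunbuir values were 180.1, 121 and 126 FPKM and then 204, 211 and 202 FPKM. The 3 Ujumqin libraries of day 25 lay within 2 FPKM of each other, and day 16 replicate 1 of Hulunbuir stood nearer to day 25 than to the other 2 libraries of its group. The change was 0.75 ± 0.16 in Ujumqin (edgeR, adjusted p = 0.0015) and 0.37 ± 0.16 in Hulunbuir (adjusted p = 0.0804).

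PSMC3, the lowest of the ring by FPKM with an implied length of 6624 bases, had 51.3, 43.7 and 48.4 FPKM in Ujumqin at day 16 and 61.4, 65.5 and 58.3 FPKM at day 25. Its Hulunbuir values were 69.8, 43.5 and 44.0 FPKM at day 16, with replicate 1 far above the others, and 64.3, 68.2 and 64.6 FPKM at day 25. The Ujumqin change of 0.51 ± 0.18 (edgeR, adjusted p = 0.0313) was lost when any 1 of the 6 Ujumqin libraries was left out (adjusted p 0.0517 to 0.129). PSMC1 changed by 0.55 ± 0.15 in Ujumqin (edgeR, adjusted p = 0.00888) and had 0.17 ± 0.15 in Hulunbuir (adjusted p = 0.392). PSMC2 (0.07 ± 0.12 in Ujumqin and 0.07 ± 0.12 in Hulunbuir) and PSMC4 (0.30 ± 0.14 and 0.24 ± 0.14) were not called in either breed, and PSMC6, found by gene number, had -0.00 ± 0.12 and -0.15 ± 0.12.

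Of the 12 PSMD genes, a share near that of all tested genes was called in each direction in Ujumqin. There 4 of 12 were called higher with age (PSMD4, PSMD6, PSMD8 and PSMD11) and 4 lower (PSMD1, PSMD2, PSMD3 and PSMD12), with a median of -0.09, against 30.7% higher and 32.9% lower of all tested genes. In Hulunbuir only PSMD8 was called higher and PSMD1, PSMD3 and PSMD12 lower, with a median of 0.02, against 18.9% and 21.6%.

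PSMD1 and PSMD2 are the large scaffold subunits of the base. PSMD1 (chromosome 2, bases 231939813 to 232016729) had 68.7, 60.3 and 66.7 FPKM in Ujumqin at day 16 and 44.1, 41.6 and 36.1 FPKM at day 25. In Hulunbuir it had 76.3, 55.2 and 64.6 FPKM and then 52.3, 51.0 and 54.1 FPKM. The ages did not overlap in either breed. PSMD1 fell by 0.55 ± 0.13 on the log2 scale in Ujumqin (edgeR, adjusted p = 0.0034) and fell by 0.47 ± 0.13 in Hulunbuir (adjusted p = 0.0137). The Hulunbuir call was lost without day 25 replicate 1 or replicate 2 (adjusted p = 0.0503 and 0.0534), and with total counts alone (-0.28, adjusted p = 0.13). With the length trend of each library removed, the call of PSMD1 was lost in both breeds (-0.22, adjusted p = 0.206 in Ujumqin and -0.20, 0.31 in Hulunbuir). PSMD2, which also binds ubiquitin-like domains, fell by 0.53 ± 0.16 in Ujumqin (edgeR, adjusted p = 0.0131), and its change in Hulunbuir was -0.41 ± 0.16 (adjusted p = 0.0605).

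Within a library, where no scaling by depth enters, PSMD1 was 29.4% ± 3.34 (SD, n = 3) of the FPKM of PSMB4 in Ujumqin at day 16 and 11.7% ± 1.55 at day 25, and 28.6% ± 0.814 and 14.1% ± 1.09 in Hulunbuir. Their implied lengths, 3112 and 862 bases, differ, so that this ratio holds any length trend of a library. PSMD4, the ubiquitin receptor of the base, went the other way from PSMD2: it had 175, 174 and 174 FPKM in Ujumqin at day 16 and 221, 235 and 217 FPKM at day 25, and 213, 165 and 154 FPKM followed by 253, 264 and 257 FPKM in Hulunbuir. Its change was 0.50 ± 0.15 in Ujumqin (edgeR, adjusted p = 0.0145, and 0.0702 without Ujumqin day 25 replicate 2) and 0.37 ± 0.15 in Hulunbuir (adjusted p = 0.0775). PSMD2 stood at 95.8% ± 9.49 of the FPKM of PSMD4 in Ujumqin at day 16 and at 46.7% ± 0.809 at day 25, and at 112% ± 5.7 and 64.9% ± 2.02 in Hulunbuir. The implied lengths of PSMD2 and PSMD4, 3186 and 1229 bases, differ too, so that this ratio also holds any length trend.

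In the lid, PSMD12, a subunit of its scaffold (chromosome 11, bases 48879065 to 48898943), had 60.0, 63.5 and 62.1 FPKM in Ujumqin at day 16 and 35.2, 26.1 and 26.9 FPKM at day 25. In Hulunbuir it had 57.3, 33.8 and 60.5 FPKM and then 39.1, 34.4 and 39.8 FPKM, where day 16 replicate 2 lay among the libraries of day 25. It fell by 0.94 ± 0.16 in Ujumqin (edgeR, adjusted p = 0.000379) and fell by 0.55 ± 0.16 in Hulunbuir (adjusted p = 0.0165). The latter call was lost without Hulunbuir day 16 replicate 1 (adjusted p = 0.0551) or day 25 replicate 2 (0.0698), and with total counts alone (-0.39, adjusted p = 0.154).

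PSMD3, another lid subunit, had 106, 108 and 85.8 FPKM in Ujumqin at day 16 and 61.7, 57.6 and 60.1 FPKM at day 25, and in Hulunbuir 125, 101 and 108 FPKM followed by 88.8, 96.0 and 90.8 FPKM. It fell by 0.61 ± 0.15 in Ujumqin (edgeR, adjusted p = 0.00415) and fell by 0.44 ± 0.15 in Hulunbuir (adjusted p = 0.0345), where leaving out any 1 of 5 Hulunbuir libraries (all but day 16 replicate 3) gave an adjusted p of 0.0687 to 0.109 and total counts alone -0.25 (0.162). PSMD8 rose by 0.80 ± 0.15 in Ujumqin (edgeR, adjusted p = 0.000753) and 0.50 ± 0.15 in Hulunbuir (adjusted p = 0.0198, and 0.05 to 0.0687 without any 1 of 5 Hulunbuir libraries, all but day 16 replicate 1). PSMD11 (0.37 ± 0.15, edgeR, adjusted p = 0.0496 in Ujumqin) was lost without any 1 of the 6 Ujumqin libraries (0.0742 to 0.188).

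PSMD6, a lid subunit, had 96.3, 87.1 and 96.6 FPKM in Ujumqin at day 16 and 113, 116 and 119 FPKM at day 25, and in Hulunbuir 110.5, 78.8 and 113 FPKM followed by 109, 109 and 107 FPKM. It was called higher in Ujumqin (0.45 ± 0.11, edgeR, adjusted p = 0.00467) and not called in Hulunbuir (-0.04 ± 0.11, adjusted p = 0.814). The breed difference in the change was -0.49 ± 0.16 (edgeR, adjusted p = 0.0519).

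PSMD5, PSMD7, PSMD13 and PSMD14 had no called change with age in either breed. PSMD14, the deubiquitinating enzyme of the lid, had 16.2, 14.4 and 12.1 FPKM in Ujumqin at day 16 and 13.9, 14.9 and 15.0 FPKM at day 25, and 15.6, 10.8 and 16.5 FPKM followed by 13.97, 14.9 and 20.9 FPKM in Hulunbuir, where the last library stood above the rest. Its changes were 0.17 ± 0.19 and 0.08 ± 0.19. PSMD13, the most abundant lid gene by FPKM, had 156, 141 and 112 FPKM and then 110.5, 122 and 121 FPKM in Ujumqin, and 172, 134 and 144 FPKM and then 176, 177 and 179 FPKM in Hulunbuir, with changes of -0.08 ± 0.17 and 0.08 ± 0.17. PSMD7, the partner of PSMD14 in the lid, changed by -0.10 ± 0.10 and 0.15 ± 0.10. PSMD5, a chaperone of base assembly, had 26.2, 24.5 and 32.2 FPKM and then 24.2, 21.4 and 21.7 FPKM in Ujumqin, and 26.7, 21.7 and 25.7 FPKM and then 30.1, 27.3 and 32.8 FPKM in Hulunbuir. Its changes were -0.16 ± 0.12 and 0.13 ± 0.12.

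The balance of regulatory and core genes was set side by side within each library as the median log2(FPKM + 1) of the 17 PSMC and PSMD genes minus that of the 13 core genes. It was -0.50, -0.69 and -0.44 in Ujumqin at day 16 and -0.97, -1.15 and -1.11 at day 25. In Hulunbuir it was -0.57, -0.42 and -0.71 at day 16 and -0.77, -0.65 and -0.81 at day 25. The ages did not overlap in Ujumqin and overlapped in Hulunbuir. Means were -0.54 ± 0.13 (SD, n = 3) and -1.08 ± 0.09 in Ujumqin, a shift of -0.54, and -0.57 ± 0.15 and -0.74 ± 0.08 in Hulunbuir, a shift of -0.17. Means over the genes in place of medians put the day 16 values above 0 (0.07 in Ujumqin, 0.17 in Hulunbuir), with shifts of -0.60 and -0.37, so that the sign of the level differed with the summary, whereas both shifts were below 0 either way. Implied lengths were 660 to 904 bases for 8 of the 13 core genes and 1050 to 6737 bases for the regulatory genes. The shifts therefore hold any length trend of a library, and no value with that trend removed was computed.

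**Figure D3:**
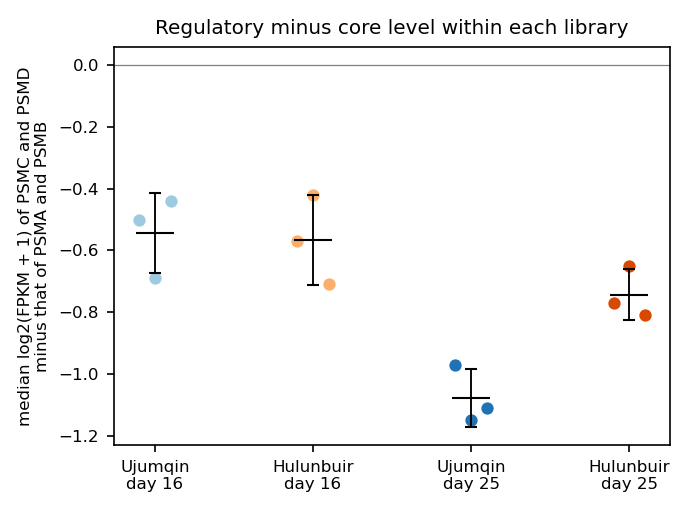
Median log2(FPKM + 1) of the regulatory genes (PSMC and PSMD) minus that of the core genes (PSMA and PSMB) in each library, by group, with the mean and SD of 3 libraries. The Ujumqin libraries of day 25 lie between -1.15 and -0.97, below all others, and those of Hulunbuir at day 25 between -0.81 and -0.65. Most core genes have shorter gene models than the regulatory genes, and no length trend was removed.

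Changes with age depended on gene length across the whole table. Of all tested genes in Ujumqin, those with an implied length under 500 bases had a median log2 change of 0.93, those of 500 to 1000 bases 0.28, of 1000 to 2000 bases -0.18, of 2000 to 4000 bases -0.37 and over 4000 bases -0.26. In Hulunbuir the medians were 0.46, 0.27, -0.02, -0.26 and -0.36. The proteasome genes in these bins had medians of 1.88 (PSMG3 alone), 0.93, 0.30, 0.35 and 0.43 in Ujumqin, each above the median of its bin. With the length trend of each library removed, an alternative chosen after seeing the data, 25 of the 38 genes were called higher and 4 lower in Ujumqin, and 12 higher and 2 lower in Hulunbuir. Of all 14595 tested genes, 4445 were then called higher and 4572 lower in Ujumqin, and 2600 and 2668 in Hulunbuir. Beside PSMD1, the change of PSMD2 in Ujumqin was then -0.21 (edgeR, adjusted p = 0.35), and those of PSMD3 and PSME4 in Hulunbuir were -0.34 (0.106) and -0.36 (0.116). The rises of PSMA5 became 0.06 (0.622) in Ujumqin and 0.08 (0.578) in Hulunbuir, and that of PSMA3 in Hulunbuir 0.17 (0.355).

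**Figure D4:**
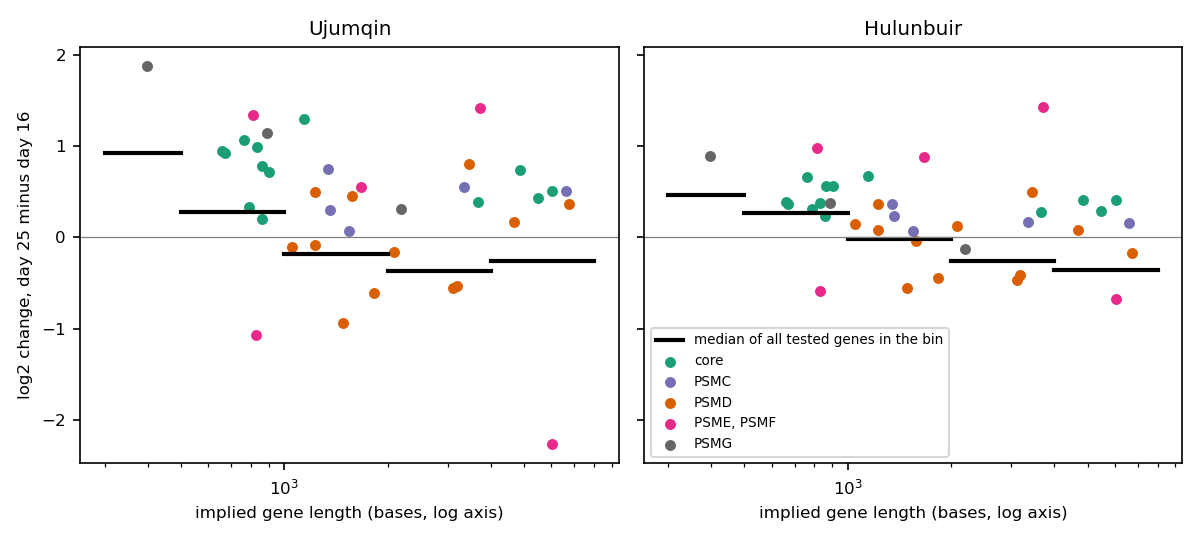
Log2 change from day 16 to day 25 against the implied gene length in bases (log axis) in each breed, with proteasome genes as points by family and the median of all tested genes in 5 length bins as black lines. The lines fall with length in Hulunbuir and, up to 4000 bases, in Ujumqin, and each core gene but PSMA1 lies above the line of its bin.

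The activators parted by kind, with changes from -2.27 to 1.42 in Ujumqin and from -0.68 to 1.43 in Hulunbuir. PSME1 and PSME2 form the interferon-inducible activator ring of the cytosol, whereas PSME3 forms a ring of its own in the nucleus and PSME4 is a large single-chain activator of the nucleus. In both breeds the first pair rose and the other pair fell.

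PSME1 (chromosome 7, bases 20632492 to 20634912) had 88.7, 88.004 and 92.6 FPKM in Ujumqin at day 16 and 196, 211 and 213 FPKM at day 25. Hulunbuir libraries had 112, 76.7 and 99.4 FPKM and then 202, 211 and 217 FPKM. The change was 1.34 ± 0.13 in Ujumqin (edgeR, adjusted p = 1e-05) and 0.98 ± 0.13 in Hulunbuir (adjusted p = 0.000232). EMC9 overlaps the whole of PSME1 (2421 bases) on the other strand and had at most 2013 counts in a library, against 2655 to 6567 for PSME1.

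PSME2, its neighbour on chromosome 7 (bases 20624296 to 20630146), had 18.3, 29.0 and 17.6 FPKM in Ujumqin at day 16 and 50.1, 56.8 and 51.9 FPKM at day 25. In Hulunbuir the values were 21.2, 12.7 and 15.5 FPKM and then 47.4, 51.6 and 49.0 FPKM. All libraries of day 25 stood above all of day 16. The change was 1.42 ± 0.23 in Ujumqin (edgeR, adjusted p = 0.000292) and 1.43 ± 0.23 in Hulunbuir (adjusted p = 0.000747). The calls of PSME1 and PSME2 held in both breeds under every alternative that was run.

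PSME3 (chromosome 11, bases 42345816 to 42350530) had 92.7, 87.0 and 87.2 FPKM in Ujumqin at day 16 and 43.1, 36.3 and 36.4 FPKM at day 25. Hulunbuir libraries had 87.9, 61.3 and 88.3 FPKM and then 60.2, 56.2 and 58.2 FPKM, so that the ages came within 2 FPKM of each other without overlapping. It fell by 1.07 ± 0.12 in Ujumqin (edgeR, adjusted p = 2.7e-05) and fell by 0.59 ± 0.12 in Hulunbuir (adjusted p = 0.00304; -0.41 and 0.0558 with total counts alone). PSME3 and PSME1 have gene models of near-equal implied length (829 and 813 bases), and their FPKM can be set against each other within a library. PSME3 was 99.2% ± 5.21 (SD, n = 3) of PSME1 in Ujumqin and 82.4% ± 5.7 in Hulunbuir at day 16, and 18.8% ± 2.82 and 27.8% ± 1.78 at day 25.

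PSME4 (chromosome 3, bases 70016995 to 70111308) had the largest change of the 38 genes in Ujumqin. It had 10.8, 12.7 and 15.4 FPKM in Ujumqin at day 16 and 3.07, 2.02 and 2.24 FPKM at day 25. In Hulunbuir it had 6.38, 7.41 and 11.7 FPKM at day 16 and 5.88, 5.69 and 5.83 FPKM at day 25. It fell by 2.27 ± 0.20 in Ujumqin (edgeR, adjusted p = 6.5e-06) and fell by 0.68 ± 0.19 in Hulunbuir (adjusted p = 0.0155). The Hulunbuir call was lost without day 16 replicate 3 (adjusted p = 0.053) or day 25 replicate 2 (0.0517) and with total counts alone (-0.52, adjusted p = 0.106).

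PSMF1, the proteasome inhibitor (chromosome 13, bases 59251288 to 59295602), had 43.5, 39.1 and 32.0 FPKM in Ujumqin at day 16 and 50.6, 51.7 and 51.3 FPKM at day 25. Its Hulunbuir values were 39.8, 26.7 and 29.6 FPKM and then 64.6, 68.8 and 64.2 FPKM. The change was 0.55 ± 0.18 in Ujumqin (edgeR, adjusted p = 0.0164) and 0.88 ± 0.18 in Hulunbuir (adjusted p = 0.00267). The Ujumqin call was lost without day 16 replicate 3, day 25 replicate 2 or day 25 replicate 3 (adjusted p 0.0566, 0.0608 and 0.0591).

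Of the 3 core particle chaperones, PSMG3 had the largest rise of the 38 genes in Ujumqin, and in Hulunbuir its rise was below those of PSME2 and PSME1. It is encoded on chromosome 24 (bases 41251571 to 41252342) and has the shortest implied gene length of the 38, 397 bases. It had 104, 99.7 and 87.0 FPKM in Ujumqin at day 16 and 289.8, 342 and 341 FPKM at day 25. Hulunbuir libraries had 127, 132 and 166 FPKM and then 287, 293 and 294 FPKM. The change was 1.88 ± 0.15 in Ujumqin (edgeR, adjusted p = 3.3e-06) and 0.89 ± 0.14 in Hulunbuir (adjusted p = 0.000747), and both calls held under every alternative that was run.

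PSMG1 and PSMG2 form a dimer that holds the outer ring subunits during assembly. PSMG1 had 49.0, 47.8 and 65.5 FPKM in Ujumqin at day 16 and 111, 108 and 108 FPKM at day 25, and in Hulunbuir 82.3, 48.6 and 76.2 FPKM followed by 98.0, 95.1 and 104 FPKM. Its change was 1.15 ± 0.15 in Ujumqin (edgeR, adjusted p = 7.4e-05) and 0.38 ± 0.15 in Hulunbuir (adjusted p = 0.0639). PSMG2 had 19.7, 22.5 and 19.1 FPKM and then 22.2, 22.6 and 24.4 FPKM in Ujumqin, and 23.5, 17.8 and 21.4 FPKM and then 21.7, 20.2 and 22.1 FPKM in Hulunbuir. Its changes, 0.31 ± 0.14 and -0.13 ± 0.14, were not called (edgeR, adjusted p = 0.0706 and 0.493), and PTPN2 overlaps 45254 of its bases on the opposite strand.

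**Figure D5:**
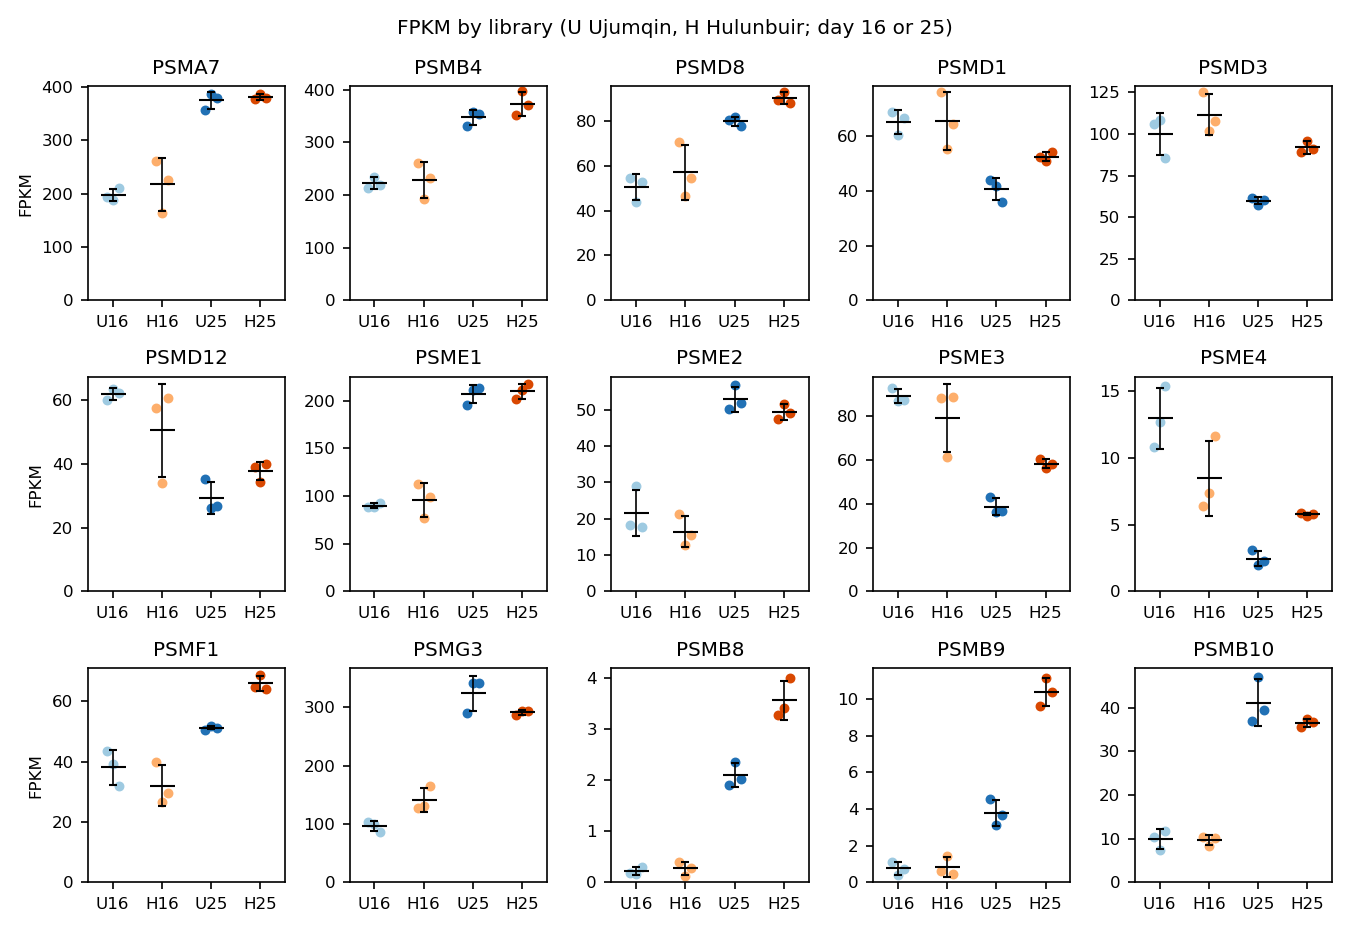
FPKM (vertical axes, each from 0) of 12 of the 38 genes and of the 3 immunoproteasome genes in the 12 libraries, by breed and age, with the mean and SD of 3 libraries. PSME1 and PSME2 are higher and PSME3 and PSME4 lower at day 25, and PSMB8, PSMB9 and PSMB10 are near 0 or low at day 16 and higher at day 25.

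The immunoproteasome subunits left out by the rule were called higher with age in both breeds. The lowest counts in a library were 30 for PSMB8, 19 for PSMB9 and 318 for PSMB10. PSMB8 had at most 0.398 FPKM at day 16 and passed the filter on low values through day 25 alone. PSMB9 reached 1 FPKM at day 16 only in Ujumqin replicate 1 (1.13) and Hulunbuir replicate 2 (1.44), so that it too passed only with day 25. The sizes of the PSMB8 and PSMB9 changes thus start near the floor and are not ranked against those of the core subunits. As both passed through the age where they were high, their calls are given as a description and not as support for a rise. PSMB8 had 0.179, 0.167 and 0.311 FPKM in Ujumqin at day 16 and 1.91, 2.36 and 2.02 FPKM at day 25, and 0.398, 0.133 and 0.291 FPKM followed by 3.28, 3.43 and 4.01 FPKM in Hulunbuir. Changes were 3.41 ± 0.36 and 3.56 ± 0.36 for PSMB8, 2.40 ± 0.51 and 3.39 ± 0.53 for PSMB9 and 2.20 ± 0.18 and 1.77 ± 0.18 for PSMB10 in Ujumqin and Hulunbuir (edgeR, adjusted p at most 0.00187). Set against the constitutive subunit it replaces, PSMB10 was 5.06% ± 1.07 of the FPKM of PSMB7 in Ujumqin at day 16 and 14.1% ± 0.598 at day 25, and 4.84% ± 0.332 and 11.1% ± 0.444 in Hulunbuir. PSMB8 was 0.733% ± 0.259 of PSMB5 and then 5.42% ± 0.636 in Ujumqin, and 0.877% ± 0.285 and then 8.03% ± 1.12 in Hulunbuir. None of the 3 was called between breeds at either age (edgeR, adjusted p 0.0565 to 0.913). A gene without a symbol overlaps PSMB8 and PSMB9 over their whole length.

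Genes of the interferon response rose alongside: 7 of 8 were called higher with age in each breed, among them ISG15 (6.36 in Ujumqin and 8.78 in Hulunbuir), and B2M was called lower in Ujumqin (-2.13), where its FPKM at day 16 was 767 ± 885. Of 6 tested leukocyte markers 1 was called higher and 2 lower in Ujumqin, and 1 higher and 0 lower in Hulunbuir. For both lists the shares of all tested genes were 30.7% higher and 32.9% lower in Ujumqin, and 18.9% and 21.6% in Hulunbuir. The summed FPKM of the 8 leukocyte markers in the table ranged from 8.54 to 111 at day 16 and from 27.8 to 43.0 at day 25. Their part in the rise of PSME1, PSME2 and the immunoproteasome genes was not tested.

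At day 16 there were 2 calls between breeds, with 16.8% of all tested genes called in either direction: 1 of 38 genes was called higher in Hulunbuir, against 8.46% of all tested genes, and 1 lower, against 8.39%. PSMG3 was higher (0.46 ± 0.14, edgeR, adjusted p = 0.0468), with 141 ± 21.3 FPKM (SD, n = 3) against 96.7 ± 8.62 in Ujumqin and no overlap of libraries, which 13.2% of all genes showed in that direction. PSME4 was lower (-0.70 ± 0.19, edgeR, adjusted p = 0.0304), with 8.48 ± 2.80 against 13.0 ± 2.29 FPKM and libraries that overlapped. Both calls rest on the spread shared with day 25: in the 6 libraries of day 16 alone 0 of 38 genes were called (edgeR, PSMG3 adjusted p = 0.236, PSME4 0.175). That setting called almost no gene, with 2 higher and 1 lower of all 14595 tested genes. With same-numbered libraries blocked as pairs in those 6 libraries, the adjusted p-values were 0.181 and 0.0749 (edgeR). The labels do not state such a pairing. Over all 12 libraries with the block PSMG3 had an adjusted p of 0.0573. PSMG3 was also lost without any 1 of 5 day 16 libraries (all but Hulunbuir replicate 1, adjusted p 0.0574 to 0.0994), and PSME4 without Ujumqin replicate 2 or 3 or Hulunbuir replicate 1 (0.076, 0.0575 and 0.0832).

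At day 25, relative to all genes, 7 of 38 were called lower in Hulunbuir, against 8.84% of all tested genes, and 1 higher, against 7.88% (16.7% in either direction). The 7 were the core subunits PSMA3, PSMB1 and PSMB3, the lid subunit PSMD6 and the 3 chaperones PSMG1, PSMG2 and PSMG3, and the 1 was PSME4. Values were -0.80 ± 0.13 for PSMA3 (edgeR, adjusted p = 0.00433), -0.58 ± 0.15 for PSMB3, -0.52 ± 0.15 for PSMB1, -0.47 ± 0.11 for PSMD6, -0.51 ± 0.15 for PSMG1, -0.49 ± 0.14 for PSMG2 and -0.53 ± 0.14 for PSMG3 (adjusted p 0.0187 to 0.0409). PSME4 was 0.88 ± 0.19 higher (edgeR, adjusted p = 0.0122), at 5.80 against 2.44 ± 0.556 FPKM. The median of the 38 genes was -0.22, and that of all genes -0.01.

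The calls depended on the scaling and on single libraries. With total counts alone 5 of 38 were called higher and 0 lower, beside 2839 and 400 of all 14595 tested genes. PSMA3 then had -0.43 (edgeR, adjusted p = 0.0686). In FPKM, 19 of 38 genes were higher in Hulunbuir in all libraries of day 25, against 49.1% of all tested genes, and 5 were lower, against 13.2%. In the 6 libraries of day 25 alone, which had the lower spread, 5 were called higher and 16 lower, beside 3397 and 3319 of all 14595 tested genes. Apart from PSMA3 and PSME4, each of the calls was lost without several of the single day 25 libraries (adjusted p up to 0.175), and PSME4 without Ujumqin day 25 replicate 2 (0.052). The number called lower was 5 without Ujumqin day 25 replicate 1 and 1 without any other library of day 25. Over all tested genes it was 976 without Ujumqin day 25 replicate 1 and 418 to 527 without another library of day 25. With the length trend removed 1 was called higher and 3 lower, beside 1089 and 1205 of all tested genes.

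The change with age itself differed between breeds for 4 of the 38 genes. PSME4 was called for a higher value in Hulunbuir, against 8.89% of all tested genes, and PSMG3, PSMG1 and PSMA3 for a lower one, against 10.3% (19.2% in either direction). The difference was 1.59 ± 0.27 for PSME4 (edgeR, adjusted p = 0.00395), -0.99 ± 0.20 for PSMG3 (0.00822), -0.77 ± 0.21 for PSMG1 (0.028) and -0.61 ± 0.19 for PSMA3 (0.0423). For PSME4 the breeds changed places, with Ujumqin higher at day 16 and Hulunbuir higher at day 25. For PSMG3 the places changed the other way with TMM, but its FPKM in the breeds overlapped at day 25. Its difference at day 25 was -0.16 with total counts alone (edgeR, adjusted p = 0.446) and -0.17 with the length trend removed (0.397). All tested genes with an implied length under 500 bases, as PSMG3 has, had a median of -0.41 for the breed difference in the change. The calls of PSME4 and PSMG3 held under every alternative that was run. That of PSMA3 was lost without any 1 of 10 of the 12 libraries (all but replicate 2 of each breed at day 16, adjusted p 0.0526 to 0.119), and that of PSMG1 without any 1 of 8 (replicates 1 and 2 of Ujumqin at day 16 and the 6 libraries of day 25, 0.051 to 0.0881). With total counts alone PSMA3 had -0.35 (edgeR, adjusted p = 0.291) and PSMG1 -0.50 (0.211), and neither was called by limma (PSMA3 -0.32, PSMG1 -0.46 with a pseudocount of 1) or without a filter (-0.53 and -0.69, adjusted p = 0.114 and 0.0812). Without Hulunbuir day 16 replicate 2, 6 of the 38 genes were called for a lower value, beside 1514 of all 14595 tested genes. Without Hulunbuir day 16 replicate 1, 2 were called for a higher one, beside 1062 of all tested genes.

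Other genes of the pathway were read from lists of the same kind. Of 16 further subunits, assembly factors and proteasome-bound proteins, 6 were called higher and 5 lower with age in Ujumqin, and 5 and 4 in Hulunbuir. For this list and those that follow, the shares of all tested genes were 30.7% higher and 32.9% lower in Ujumqin and 18.9% and 21.6% in Hulunbuir, and no list is set apart from them here. POMP, the chaperone of core particle maturation, had 103 ± 8.01 and 137 ± 11.3 FPKM in Ujumqin (0.55 ± 0.13, edgeR, adjusted p = 0.00406) and 96.9 ± 10.0 and 127 ± 2.89 FPKM in Hulunbuir (0.23 ± 0.13, adjusted p = 0.182). UBE3C, a ubiquitin ligase bound to the proteasome, changed by -1.98 ± 0.12 in Ujumqin and -0.77 ± 0.11 in Hulunbuir (edgeR, adjusted p = 1.1e-06 and 0.000454). MIDN, which carries proteins to the proteasome without ubiquitin, changed by 1.68 ± 0.15 and 0.23 ± 0.15 (edgeR, adjusted p = 7.2e-06 and 0.232), and ZFAND5, a protein that binds the proteasome, by 1.24 ± 0.14 and 0.72 ± 0.14. PSMA2, found by gene number, changed by 0.83 ± 0.12 and 0.53 ± 0.12, and PSMD9, a base chaperone, by -0.46 ± 0.16 and 0.03 ± 0.16.

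Among 10 genes of the transcriptional control of proteasome genes, NFE2L1, the factor that raises proteasome genes when the proteasome is inhibited, had 27.1 ± 1.18 and 8.36 ± 1.56 FPKM at the 2 ages in Ujumqin and 30.0 ± 3.02 and 14.6 ± 1.13 FPKM in Hulunbuir. Its changes were -1.56 ± 0.15 and -1.20 ± 0.15 (edgeR, adjusted p = 1.1e-05 and 0.000192). DDI2, the protease that activates NFE2L1, changed by -2.68 ± 0.42 and -1.15 ± 0.40 (edgeR, adjusted p = 0.00025 and 0.0392), and NFYB, a CCAAT-binding factor, by 1.31 ± 0.16 and 0.73 ± 0.16 (5.1e-05 and 0.00458). In all, 3 of the 10 were called higher and 2 lower in Ujumqin, and 2 and 3 in Hulunbuir.

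Of 8 genes of ubiquitin and its activation, UBB and RPS27A, which encode ubiquitin, were called higher in both breeds, with 1.42 ± 0.16 and 0.71 ± 0.15 for RPS27A, and UBA6, an activating enzyme, was called lower (-1.70 ± 0.14 and -1.04 ± 0.14). Of 6 genes of the p97 segregase, which hands ubiquitinated proteins to the proteasome, 2 were called higher and 3 lower in each breed. VCP, its ATPase, changed by -0.84 ± 0.15 and -0.56 ± 0.15, and its cofactor NPLOC4 by -1.54 ± 0.13 and -0.72 ± 0.13. Of the 8 subunits of the chaperonin CCT, a cytosolic complex taken for comparison, 4 were called higher and 2 lower in Ujumqin and 0 and 2 in Hulunbuir, with medians of 0.24 and -0.19. CCT8 changed by 0.89 ± 0.12 in Ujumqin and -0.07 ± 0.12 in Hulunbuir, and CCT2 by -0.34 ± 0.11 and -0.35 ± 0.11.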

How the data were processed

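The deposited table gives, per the file headers, a whole-number count and an FPKM value made by the authors for each gene in each of 12 libraries. The submitters' processing notes name cutadapt 1.9, FastQC and the build Oar_v3.1. How reads were aligned and counted, and whether by strand, is not given in the sources used here. The proteasome genes and the lists were chosen with earlier results of these data known. The 14595 genes that reached 1 FPKM in 3 or more libraries entered edgeR 4.0.16 (R 4.3.3; glmQLFit and glmQLFTest, TMM, 4 group means over 12 libraries, two-sided, Benjamini-Hochberg, 0.05). The code was tried on simulated data with the same spread in all libraries. That trial does not cover the unequal spread of day 16 and day 25. SE was taken as the size of the log2 change over the root of its F statistic. Implied length is count over FPKM and total count, as a median over libraries with at least 20 counts. Replicates of a group were counted singly (chi-square per degree of freedom 16.5 to 610). Values in every library are printed for the 4 called genes with the smallest adjusted p per contrast and direction, the highest and lowest gene of each role and genes with a called interaction; others were added as related or by range. Deviations of same-numbered libraries of the 2 breeds at day 16 correlated at 0.16, 0.31 and 0.38. The replicate block took these numbers as pairs, although the labels state no pairing and 3 libraries per group cannot establish one. In the other comparisons no such r exceeded 0.09. Alternatives were other scalings, filters and tools (limma 3.58.1, DESeq2 1.42.0), fewer libraries and the replicate block. RefSeq's gene table (ARS-UI_Ramb_v3.0) was used for names alone. No sequence is given.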

Additional observations from a re-analysis of the deposited data

Results flagged for a closer look

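The change from day 16 to day 25 differed between the breeds, by the interaction term of edgeR's quasi-likelihood test, for 4 genes. The difference (Hulunbuir minus Ujumqin) was 1.59 for PSME4 (adjusted p = 0.00395), -0.99 for PSMG3 (0.00822), -0.77 for PSMG1 (0.028) and -0.61 for PSMA3 (0.0423). The calls of PSMG1 and PSMA3 were lost with total counts alone (-0.50, adjusted p = 0.211, and -0.35, 0.291), with limma and without a filter, and that of PSMA3 also with the replicate block (0.0588). Groups of 3 libraries were not tested for outlying samples.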

How the results depend on the processing

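Of 61 calls of single genes over the 5 comparisons, 25 held under every alternative run for them, 36 were lost under at least 1, 29 were lost when 1 library was left out, and none changed direction. Numbers of the 38 genes called (higher, then lower) moved by over 1.5 times as follows, the causes not being tested. Calls over all tested genes moved with the setting as well and follow each comparison. Genes tested were 14595, but 21446 without a filter, 10929 with the filter of 5 FPKM and 14543 with DESeq2. Between breeds at day 16 (1 and 1 as reported), the number higher was 0 with RLE factors, no filter, voom, the replicate block, the 6 libraries alone and the block in them, and 2 with upper quartile scaling, DESeq2 and the filter of 5 FPKM; the number lower was 0 with upper quartile scaling, total counts, both limma pseudocounts, voom, the 6 libraries alone and the block in them, and 2 with DESeq2. Each was 0 to 1 with 1 library left out. Over all tested genes the calls were 1235 higher and 1224 lower as reported, 1162 and 1287 with RLE factors and 1541 and 1074 with upper quartile scaling. They were 1343 and 993 with total counts, 1800 and 1896 with DESeq2 and 241 and 246 with voom. In the 6 libraries alone they were 2 and 1, and with the block in them 130 and 163. Leaving out 1 library gave 574 to 1673 and 593 to 1688. At day 25 (1 and 7), 5 were higher with total counts, with the 6 libraries alone and with the block in them, 6 with either limma pseudocount and 4 with voom; lower were 0 with total counts and limma, 11 with DESeq2, 1 without a filter, 20 with voom, 16 in the 6 libraries alone, 17 with the block in them and 3 with the length trend removed. Leaving out 1 library gave 0 to 1 higher and 1 to 5 lower. Over all tested genes the calls were 1150 higher and 1290 lower as reported, 2839 and 400 with total counts and 3140 and 527 with limma (pseudocount 1). They were 1568 and 1913 with DESeq2, 1126 and 786 without a filter and 3085 and 3580 with voom. In the 6 libraries alone they were 3397 and 3319, with the block in them 3302 and 3180, and with the length trend removed 1089 and 1205. Without 1 library they were 447 to 1098 and 418 to 976. With age in Hulunbuir (12 and 5), 19 were higher with upper quartile scaling, 22 with total counts and limma and 5 with the block in 6 libraries; lower were 0 with total counts and with that block, 1 with limma, and 2 in the 6 libraries alone and with the length trend removed. Leaving out 1 library gave 7 to 19 higher and 1 to 5 lower. Over all tested genes the calls were 2758 higher and 3155 lower as reported, 3183 and 2691 with upper quartile scaling and 3454 and 2144 with total counts. They were 3805 and 2131 with limma (pseudocount 1), 2778 and 2923 in the 6 libraries alone and 2295 and 2272 with the block in them. With the length trend removed they were 2600 and 2668, and without 1 library 1986 to 2697 and 2143 to 3024. For the interaction (1 and 3), 2 were higher with total counts, DESeq2, 5 FPKM and limma, and 1 lower with total counts, no filter and limma; leaving out 1 library gave 1 to 2 and 1 to 6. Over all tested genes the interaction was called for 1298 higher and 1506 lower as reported, 1990 and 722 with total counts and 1825 and 2080 with DESeq2. The calls were 1253 and 1319 with 5 FPKM, 2203 and 772 with limma (pseudocount 1) and 1288 and 1000 with no filter. Without 1 library they were 723 to 1597 and 768 to 1757. The Ujumqin age counts of the 38 genes did not move by over 1.5 times. Regulatory minus core by the mean over genes was 0.07 and 0.17 (Ujumqin, Hulunbuir) at day 16 and -0.53 and -0.20 at day 25. The replicate block over 12 libraries lost 5 of the 61 calls: PSMG3 between breeds at day 16, PSMG2 at day 25, PSMD11 with age in Ujumqin, PSMA3 with age in Hulunbuir and PSMA3 in the interaction. Outside day 16 the libraries shared only a number, and at day 16 the labels state no pairing either. Leaving out 1 library of day 16 lost 5 to 9 of the calls it entered, and 1 of day 25 lost 9 to 17. PSMA8 had the fewest counts of the 38 genes, which limits the precision of its values.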
